A study of Mus musculus with 6 samples.

Results

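Iron handling in the heart was examined through 9 genes, chosen by name among the 54532 gene identifiers of the expression table and matched by their Ensembl identifiers to GENCODE symbols. They are Tfrc, Slc11a2 and Trf of iron uptake and transport, Fth1 and Ftl1 of iron storage, Slc40a1 and Hamp of iron export and its control, and Ireb2 and Aco1 of iron sensing. RNA was sequenced from left ventricular myocardium of male C57BL/6 mice that were 6 to 8 weeks old at the start, with 1 library from each of 6 mice. In the HFpEF group (heart failure with preserved ejection fraction), 3 mice received for 12 weeks a diet with 60% of its kcal as fat together with 0.5 g/L L-NAME, which inhibits nitric oxide synthases, in water of pH 7.4. In the Chow group, 3 mice ate standard chow and drank regular water. Every HFpEF mouse had both the diet and L-NAME, so the effects of the diet and of the inhibitor cannot be told apart. Levels are FPKM (fragments per kilobase of exon, divided by a denominator for each library) as deposited, and are listed for replicates 1, 2 and 3 in that order.

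Iron circulates bound to transferrin, enters cells through the transferrin receptor, leaves the endosome through a divalent metal transporter and is stored inside the ferritin shell or exported by ferroportin. The heart muscle cell is rich in mitochondria, which use iron to build haem and iron-sulphur clusters for the respiratory chain. Cellular iron is sensed by a pair of iron regulatory proteins that bind a hairpin in mRNA, the iron-responsive element (IRE), when iron is scarce. Binding near the start of a ferritin or ferroportin mRNA blocks its translation, whereas binding in the transferrin receptor's 3′ UTR protects that mRNA from decay. Transcript levels therefore follow this control for the transferrin receptor and miss much of it for ferritin. The study also measured proteins by mass spectrometry in the same left ventricular samples. Those protein values were not used here, where only RNA is described.

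The hairpin is shown because it divides these genes by the end of the mRNA at which it sits. UTRs of GENCODE M21 transcripts (GRCm38) were searched on the transcript strand for the letters CNNNNNCAGTGN, with at least 4 pairs among the 5 bases that follow the bulged C and the 5 that follow the loop. In the lines that follow, capitals mark the bulged C and the 6-base loop, and each sequence runs 5′ to 3′ over 27 bases.
Fth1 5′ UTR, chr19:9982733-9982759, plus strand: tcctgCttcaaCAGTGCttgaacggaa
Ftl1 5′ UTR, chr7:45459780-45459806, minus strand: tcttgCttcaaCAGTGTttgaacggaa
Slc40a1 5′ UTR, chr1:45925466-45925492, minus strand: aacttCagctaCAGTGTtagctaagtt
Slc11a2 3′ UTR, chr15:100395154-100395180, minus strand: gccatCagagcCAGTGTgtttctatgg
Tfrc 3′ UTR, chr16:32631220-32631246, plus strand: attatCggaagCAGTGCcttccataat
Tfrc 3′ UTR, chr16:32631599-32631625, plus strand: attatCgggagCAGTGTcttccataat
Tfrc 3′ UTR, chr16:32631664-32631690, plus strand: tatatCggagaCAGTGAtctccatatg
Tfrc 3′ UTR, chr16:32631711-32631737, plus strand: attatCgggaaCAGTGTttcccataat
The storage and export genes Fth1, Ftl1 and Slc40a1 each held 1 match in the 5′ UTR, and the uptake genes held theirs in the 3′ UTR, with 4 matches in Tfrc and 1 in Slc11a2. The Slc11a2 match has 4 of the 5 stem pairs and the others have 5. The same search matched 0.951% of 20916 genes with a 5′ UTR and 4.11% of 21039 genes with a 3′ UTR, so a match by itself is not rare in 3′ UTRs and is not a measured site. No match with both the letters and the stem pairs was found in the UTRs of Hamp, Ireb2, Aco1 or Trf. The search also returned 0 for Epas1, placed below among sensing genes and mRNAs with known hairpins. The lack of a match is thus not the lack of a hairpin.

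Reads recovered from the FPKM steps totalled 13076772 to 15574914 per Chow library and 13461735 to 16027084 per HFpEF library. The denominators implied by the FPKM were 14239712, 11734336 and 12093541 in Chow and 13847565, 16942925 and 19316914 in HFpEF. They lay below the recovered reads in every Chow library and above them in every HFpEF library. Group differences in FPKM and in shares of recovered reads are thus on unlike scales. HFpEF replicate 3 stood apart, with 7.17% of its reads from mitochondrially encoded genes against 20.1% to 26.0% in the other 5 libraries, and with a summed level of 7 fibroblast markers of 3712 FPKM against 182 to 375. The 7 ventricular cardiomyocyte markers summed to between 12940 and 14150 FPKM in Chow and between 6236 and 10088 in HFpEF. On this FPKM scale all 7 were lower in every HFpEF library than in every Chow library, as were 19.7% of the 14227 genes tested below. Under quantile normalization the log2 fold changes of Myh6, Tnni3 and Actc1 were 0.22, 0.05 and 0.30. Those of Myl2, Tnnt2, Ryr2 and Pln were then -0.27, -0.05, -0.30 and -0.26. Left ventricular origin is stated in the paper's methods, while the sample titles say only heart. The 5 atrial cardiomyocyte markers did not match a left ventricular origin in every library. They summed to 2453 and 3834 FPKM in HFpEF replicates 1 and 2 and to 538 in Chow replicate 3. In the other 3 libraries they summed to 13.3 to 20.6 FPKM. In such bulk RNA, fewer cells of a type and less RNA per cell cannot be told apart. The libraries come from distinct mice, so the p-values here measure the spread between mice.

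Of the 9 genes, 8 passed the minimum of 0.5 FPKM in at least 3 libraries and were tested with limma among 14227 genes, and Hamp did not. With the threshold of adjusted p under 0.05 and a log2 fold change of 2 or more in either direction, 0 of the 8 were called, where 0.0562% of all genes tested were. With adjusted p under 0.05 alone, 0 of the 8 passed, where 0.0984% of all genes did. At an unadjusted limma p under 0.05, 1 gene was lower in HFpEF (Tfrc, beside 13.1% of all genes) and 1 was higher (Ftl1, beside 10.2% of all genes). Together these were 25% of the 8, against 23.4% of all genes tested. The HFpEF and Chow libraries did not overlap for 6 of the 8 (75%, against 35.3% of all genes). They were lower in HFpEF for Tfrc, Fth1 and Slc11a2 (19.7% of all genes) and higher for Ftl1, Ireb2 and Trf (15.6% of all genes). The median log2 fold change of the 8 was -0.04, beside -0.01 over all genes tested. An exact permutation test of 3 mice against 3 cannot give a p below 0.1, which every gene without overlap reached.

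**Figure D1:**
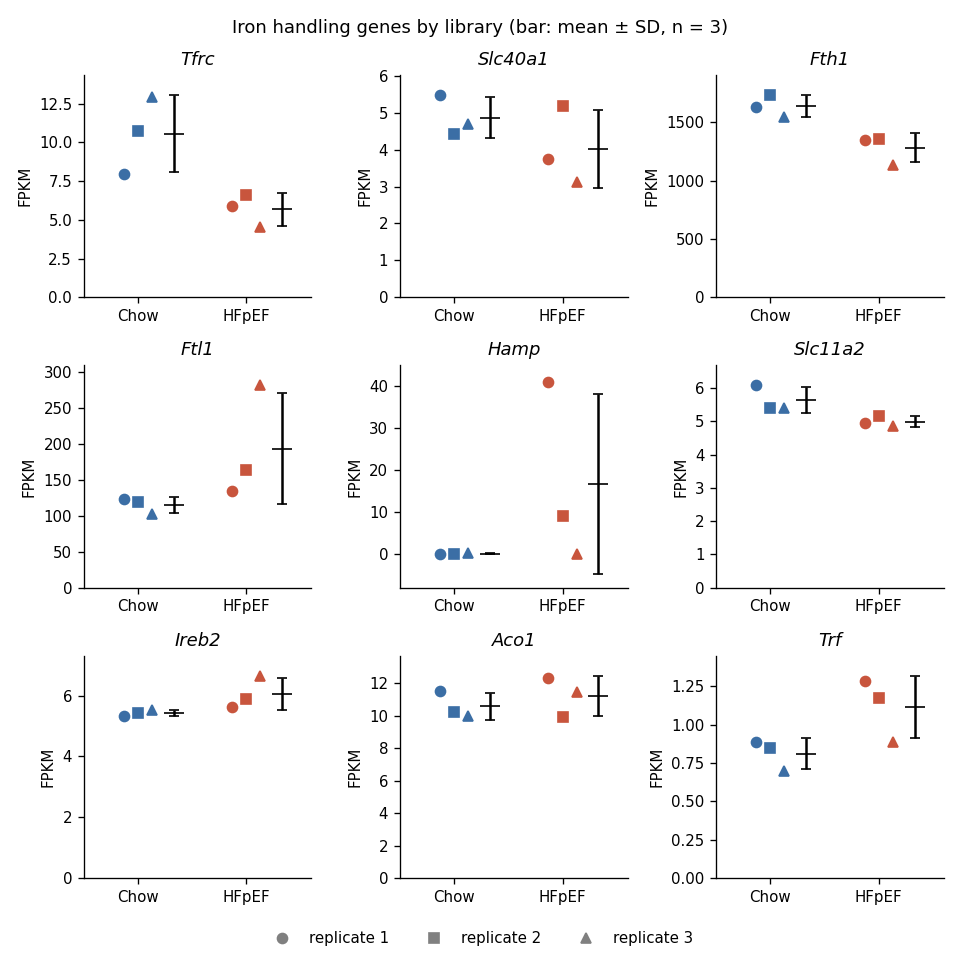
Level of each of the 9 genes (y axes, FPKM, a separate scale per panel) in the 3 Chow and 3 HFpEF libraries, with symbols for the replicate and bars for the mean ± SD. Tfrc, Fth1 and Slc11a2 lay lower and Ftl1, Ireb2 and Trf higher in all 3 HFpEF libraries, and Hamp was high in 2 HFpEF libraries and at 0 in the other.

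Among levels per length, ferritin heavy chain stood far above the other genes. In Chow the mean level was 1637 FPKM for Fth1 and 115 for Ftl1, and no library of one overlapped a library of the other. Tfrc and Aco1 came next, with means of 10.6 FPKM each and overlapping libraries. Slc11a2, Ireb2 and Slc40a1 followed at 5.63, 5.43 and 4.86 FPKM, and neighbours in that order overlapped. Trf at 0.811 and Hamp at 0.0672 FPKM closed the order, each below its neighbour in every library. In HFpEF the means of Fth1 and Ftl1 were 1281 and 193 FPKM, again without overlap. Ireb2 (6.06), Tfrc (5.67), Slc11a2 (4.99) and Slc40a1 (4.02 FPKM) then formed a run in which each overlapped its neighbours, below Aco1 at 11.2 FPKM. The Hamp libraries of HFpEF, from 0 to 40.9 FPKM, spanned the ranges of Aco1 and of the genes in that run, and lay below every Ftl1 library. Tfrc thus shared its range with Aco1 in Chow and with Ireb2 and Slc11a2 in HFpEF.

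Tfrc encodes transferrin receptor 1, the main entry route for transferrin-bound iron (ENSMUSG00000022797, chr16:32608920-32632794, plus strand). Its level was 7.97, 10.8 and 13.0 FPKM in Chow and 5.87, 6.60 and 4.54 FPKM in HFpEF. Every HFpEF library lay below every Chow library, although Chow replicate 1 lay nearer to HFpEF replicate 2 than to Chow replicate 3. The mean was 10.6 ± 2.50 FPKM in Chow and 5.67 ± 1.05 in HFpEF (SD, n = 3 each). The fitted log2 fold change was -0.88 (SE 0.22, 95% interval -1.40 to -0.36), which is 0.545 of the Chow level. Its limma p was 0.00564 before and 0.119 after adjustment over all genes, and the exact permutation p was 0.1, so the difference did not pass. Without HFpEF replicate 3 the log2 fold change was -0.73 with a limma adjusted p of 0.0948, and 8.35% of all genes then had an adjusted p under 0.05. The level was also lower without overlap as a share of all recovered reads, at 0.00451% to 0.00731% in Chow and 0.00357% to 0.00432% in HFpEF.
Red blood cell precursors carry much of this receptor, and the 6 red blood cell markers summed to 278, 1576 and 496 FPKM in Chow and 1799, 474 and 580 in HFpEF, so these groups overlapped. Ventricular cardiomyocyte markers were lower on the FPKM scale in the same libraries as Tfrc, and their part in the result was not tested. The 2 genes whose profiles over the 6 libraries lay nearest to Tfrc, by the root mean square difference of log2 ratios to the Chow mean, were Atp5k (0.0785) and Ndufa3 (0.0870), which encode subunits of ATP synthase and of respiratory complex I.

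Slc11a2 encodes the divalent metal transporter DMT1, which moves iron out of the endosome (ENSMUSG00000023030, chr15:100387898-100425072, minus strand). Its level was 6.08, 5.41 and 5.41 FPKM in Chow and 4.94, 5.17 and 4.86 FPKM in HFpEF. The HFpEF libraries were the 3 lowest and lay close together. The means were 5.63 ± 0.387 and 4.99 ± 0.164 FPKM (SD, n = 3 each). The log2 fold change was -0.17 (SE 0.10, 95% interval -0.41 to 0.07, limma adjusted p = 0.338), and it turned to 0.08 when libraries were scaled to equal FPKM sums over nuclear-encoded genes. That scaling moved the median of all genes to 0.24 on the log2 scale, so relative to this median Slc11a2 stayed lower. As a share of all recovered reads it was at 0.00353%, 0.00308% and 0.00314% in Chow and 0.00323%, 0.00348% and 0.00392% in HFpEF, where the groups overlapped and the HFpEF mean was the higher. Of its exon bases, 6.33% are shared with the antisense gene Gm5475, which averaged 0.0312 FPKM.

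Trf encodes transferrin, the iron carrier of plasma, made chiefly by the liver (ENSMUSG00000032554, chr9:103204001-103230444, minus strand). Its level was 0.888, 0.847 and 0.697 FPKM in Chow and 1.28, 1.17 and 0.889 FPKM in HFpEF, from 28 to 66 recovered reads per library. HFpEF replicate 3 and Chow replicate 1 were nearly level, so the absence of overlap rests on a margin far under the spread within either group. The means were 0.811 ± 0.101 and 1.12 ± 0.204 FPKM (SD, n = 3 each), and the log2 fold change was 0.41 (SE 0.23, 95% interval -0.14 to 0.95, limma adjusted p = 0.320). The 8 liver markers summed to at most 3.64 FPKM in Chow and at least 9.46 in HFpEF. Of the 8, Alb and Fgb were at 0 in all 6 libraries, and 2 were higher in every HFpEF library (beside 15.6% of all genes tested). These were Cyp2e1, a cytochrome P450 also made in fat, at 0 to 0.0651 FPKM in Chow and 5.71 to 10.3 in HFpEF, and Ahsg, which encodes fetuin-A, at 0.504 to 1.92 and 3.09 to 5.85. Schwann cells and oligodendrocytes also make transferrin, and their 5 markers summed to 3.88 to 5.31 FPKM in Chow and 6.00 to 9.56 in HFpEF. Of the 5, 4 were higher without overlap, as were 15.6% of all genes tested. None of these 5 was at 0 throughout, and the part of either list in the Trf result was not tested. Trf shares 63.5% of its exon bases with Gm20425 on the same strand, which is listed at 0, and how the counting treated reads in both genes is not given in the sources used here.

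Fth1 encodes the ferritin heavy chain, whose ferroxidase site oxidizes iron for storage (ENSMUSG00000024661, chr19:9980598-9985098, plus strand). Its level was 1629, 1733 and 1549 FPKM in Chow and 1348, 1358 and 1137 FPKM in HFpEF. The groups did not overlap, and the lowest Chow library lay above the highest HFpEF library by more than the SD of either group. The means were 1637 ± 92.4 and 1281 ± 125 FPKM (SD, n = 3 each). The log2 fold change was -0.36 (SE 0.18, 95% interval -0.78 to 0.06, limma adjusted p = 0.269), it turned to 0.39 under quantile normalization, and it was -0.28 without HFpEF replicate 3 (limma adjusted p = 0.0651).
As a share of all recovered reads Fth1 did not separate the groups, with 0.517%, 0.540% and 0.490% in Chow and 0.481%, 0.498% and 0.502% in HFpEF. The lower level therefore holds on the FPKM scale and not as a share of reads. The profiles nearest to Fth1 were those of Urod (0.0178), a haem synthesis enzyme, and Cog4 (0.0205), a Golgi protein. Such likeness is common for this gene, since 409 tested genes lay within 0.1 of its profile.

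Ftl1 encodes the ferritin light chain, which lacks the ferroxidase site and helps the iron core to form (ENSMUSG00000050708, chr7:45457944-45459884, minus strand). Its level was 124, 119 and 103 FPKM in Chow and 135, 163 and 281 FPKM in HFpEF. All HFpEF libraries were higher than all Chow libraries, and replicate 3 was far above the other two. The means were 115 ± 10.8 and 193 ± 77.4 FPKM (SD, n = 3 each). The log2 fold change was 0.68 (SE 0.28, 95% interval 0.01 to 1.34), with a limma p of 0.0472 before and 0.209 after adjustment and an exact permutation p of 0.1. Without HFpEF replicate 3 it was 0.37 (limma adjusted p = 0.115), and without HFpEF replicate 1 it was 0.90.
Macrophages recycle iron and are rich in ferritin, and their 9 markers summed to 239 to 301 FPKM in Chow and to 295, 400 and 970 FPKM in HFpEF replicates 1, 2 and 3. Of the 9, 4 were higher in every HFpEF library than in every Chow library, as were 15.6% of all genes tested. Lyz2, the most abundant, was at 139, 179 and 534 FPKM in HFpEF against 110 to 147 in Chow. The profile nearest to Ftl1 was that of Csf1r (0.0545), the receptor on which macrophages depend, at 16.4, 15.2 and 13.5 FPKM in Chow and 17.9, 23.2 and 38.0 FPKM in HFpEF. The part of macrophages in the Ftl1 result was not tested. Near-identical ferritin copies can share reads with Ftl1, of which Ftl1-ps1 was at 1.76 to 2.81 FPKM in Chow and 2.41 to 6.14 in HFpEF. Antisense Gm10252 shares 26.5% of the Ftl1 exon bases, and the strand setting of the counting is not given in the sources used here.

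Slc40a1 encodes ferroportin, the only known exporter of iron from animal cells (ENSMUSG00000025993, chr1:45908068-45926523, minus strand). Its level was 5.48, 4.42 and 4.69 FPKM in Chow and 3.74, 5.19 and 3.12 FPKM in HFpEF. HFpEF replicate 2 lay within the Chow range, so the groups overlapped. The means were 4.86 ± 0.548 and 4.02 ± 1.06 FPKM (SD, n = 3 each), with a log2 fold change of -0.30 (SE 0.20, 95% interval -0.78 to 0.19, limma adjusted p = 0.394). Without HFpEF replicate 3 the log2 fold change was -0.14. The interval holds values of either sign, so the direction was not settled at this number of mice.

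**Figure D2:**
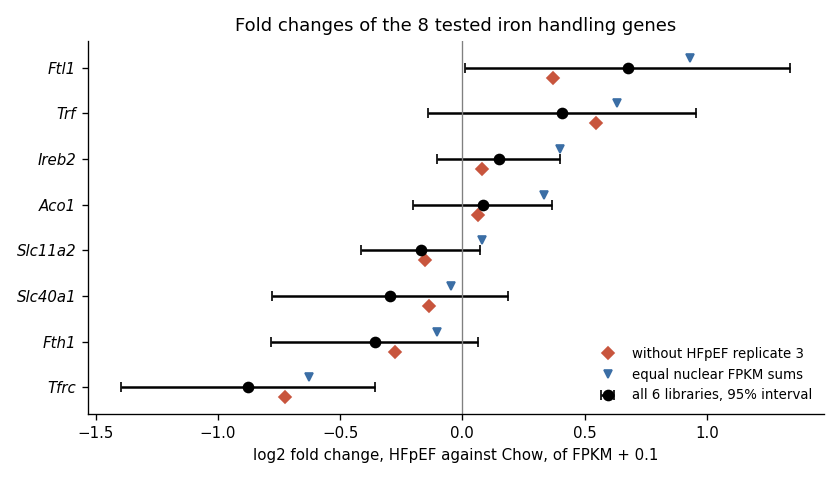
Fitted log2 fold change, HFpEF against Chow, of FPKM + 0.1 (x axis) for the 8 tested genes, with the 95% interval of the fit of all 6 libraries, beside the values without HFpEF replicate 3 and with libraries scaled to equal nuclear FPKM sums. Tfrc and Ftl1 have intervals off 0, at -1.40 to -0.36 and 0.01 to 1.34. Slc11a2 changes sign under the other scaling, which moves the median of all genes to 0.24. Fth1 changes sign under quantile normalization, which is not drawn.

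Hamp encodes hepcidin, the hormone that binds ferroportin and leads to its breakdown (ENSMUSG00000050440, chr7:30942368-30944032, minus strand). It was at 0, 0 and 0.202 FPKM in Chow and at 40.9, 9.07 and 0 FPKM in HFpEF. The recovered reads were 0, 0 and 1 in Chow and 232, 63 and 0 in HFpEF, so 2 HFpEF libraries held nearly every read and the third held none. A count of 0 in HFpEF replicate 3 allows a level of up to 0.379 FPKM (3 reads), for counting error only. The group values overlapped, and the exact permutation p was 0.4.
The atrial markers were highest in HFpEF replicates 1 and 2, which held 232 and 63 Hamp reads, and next highest in Chow replicate 3, which held 1. Myl7, the atrial myosin light chain, was at 3.81, 0.289 and 237 FPKM in Chow and 975, 2073 and 8.60 FPKM in HFpEF. Nppa, which encodes atrial natriuretic peptide, was at 9.09, 15.7 and 197 FPKM in Chow and 896, 952 and 8.02 FPKM in HFpEF. Sln, atrial sarcolipin, was at 0, 0 and 54.5 FPKM in Chow and 219, 431 and 1.37 FPKM in HFpEF. The order of Hamp within these libraries was not that of the markers in full, because HFpEF replicate 1 had more Hamp than replicate 2 and less Myl7 and Sln. Bmp10, an atrial member of the bone morphogenetic protein family, was at 148 FPKM in HFpEF replicate 1 and at no more than 0.0263 FPKM in the other 5 libraries. Of the liver markers, Alb and Fgb were at 0 in all libraries, whereas Cyp2e1 and Ahsg were higher in every HFpEF library, replicate 3 without Hamp reads included. The part of atrial or liver RNA in the Hamp level was not tested. The neighbouring paralog Hamp2 had 2 and 7 recovered reads in HFpEF replicates 1 and 2 and 0 in the other 4 libraries.

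**Figure D3:**
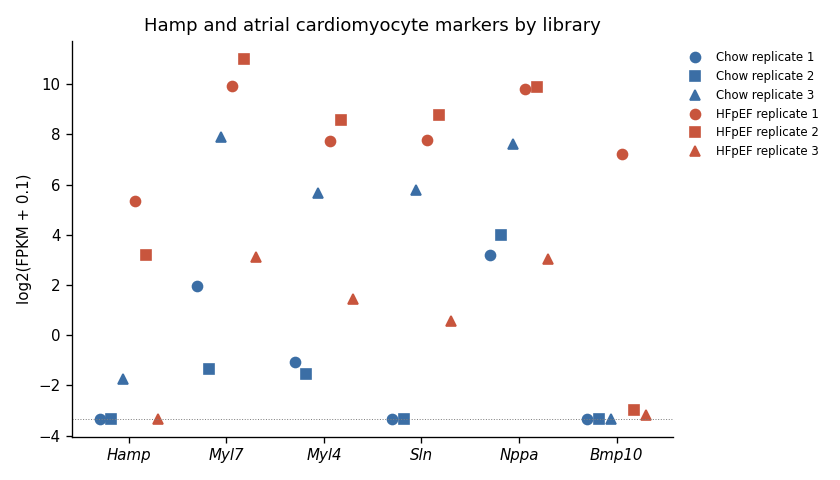
Levels of Hamp and the 5 atrial cardiomyocyte markers in each library, as log2(FPKM + 0.1), with the dotted line at 0 FPKM. HFpEF replicates 1 and 2 are the highest for Hamp (40.9 and 9.07 FPKM), Myl7, Myl4, Sln and Nppa, and HFpEF replicate 1 stands alone for Bmp10 (148 FPKM).

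Ireb2 encodes iron regulatory protein 2, which is degraded when iron is plentiful (ENSMUSG00000032293, chr9:54863789-54912530, plus strand). Its level was 5.33, 5.43 and 5.54 FPKM in Chow and 5.64, 5.88 and 6.65 FPKM in HFpEF. The HFpEF libraries were the 3 highest, with replicates 1 and 2 just above the narrow Chow range. The means were 5.43 ± 0.103 and 6.06 ± 0.530 FPKM (SD, n = 3 each), with a log2 fold change of 0.15 (SE 0.10, 95% interval -0.10 to 0.40, limma adjusted p = 0.410). Without HFpEF replicate 3 the log2 fold change was 0.08. Aco1 encodes iron regulatory protein 1, which is a cytosolic aconitase while it holds an iron-sulphur cluster (ENSMUSG00000028405, chr4:40143081-40198338, plus strand). Its level was 11.5, 10.2 and 9.95 FPKM in Chow and 12.3, 9.90 and 11.5 FPKM in HFpEF. The HFpEF libraries included both the highest and the lowest of the 6. The means were 10.6 ± 0.814 and 11.2 ± 1.22 FPKM (SD, n = 3 each), with a log2 fold change of 0.08 (SE 0.12, 95% interval -0.20 to 0.37, limma adjusted p = 0.690). Among the 8 tested genes Aco1 had the smallest fitted difference.

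Ratios of these genes within a library do not move with a scaling factor between libraries, though their absolute size depends on the exon lengths used (3469 bases for Fth1 and 1340 for Ftl1). Fth1 stood at 13.2, 14.6 and 15.1 times the FPKM of Ftl1 in Chow and at 10.0, 8.32 and 4.05 times in HFpEF. The mRNA levels of the ferritin chains thus lay closer together in all 3 HFpEF libraries, most so in replicate 3. The mean log2 ratio was 3.83 ± 0.10 in Chow and 2.80 ± 0.69 in HFpEF (SD, n = 3 each), a difference of -1.04 with an exact two-sided permutation p of 0.1. The ratio of Tfrc to Fth1, receptor to store, was lower by 0.53 on the log2 scale in HFpEF without overlap (exact permutation p = 0.1), with Chow replicate 1 (log2 ratio -7.67) barely above HFpEF replicate 2 (-7.68). The ratio of Tfrc to Slc40a1, entry to exit, differed by -0.58 with overlapping libraries (exact permutation p = 0.2). The ratio of Ireb2 to Aco1 differed by 0.07 (exact permutation p = 0.6). Adjusted over these 4 ratios, the exact permutation p-values were 0.2, 0.2, 0.267 and 0.6 in the same order. Without HFpEF replicate 3, the difference for Fth1 to Ftl1 was -0.65.

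**Figure D4:**
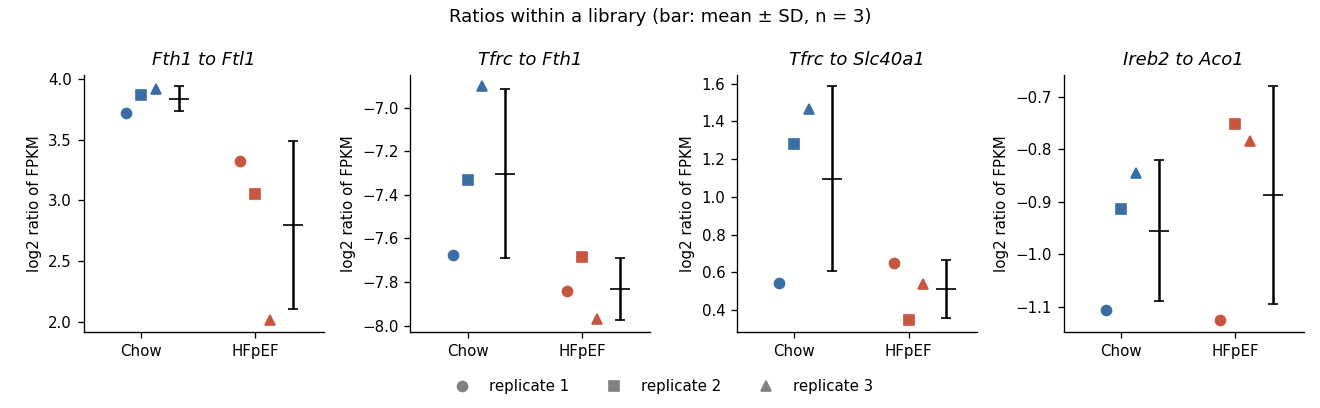
Log2 ratio of FPKM within each library (y axes, a separate scale per panel that does not start at 0) for 4 pairs of genes, with symbols for the replicate and bars for the mean ± SD. Fth1 to Ftl1 lies between 3.72 and 3.91 in Chow and between 2.02 and 3.32 in HFpEF, and the Ireb2 to Aco1 ratios of the groups overlap.

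The other genes of iron and haem metabolism were described through a list of 121 genes, of which 120 matched the table and 105 were tested. At an unadjusted limma p under 0.05, 30 were lower (28.6%, beside 13.1% of all genes tested) and 14 higher (beside 10.2%), together 41.9% of the 105 against 23.4% of all genes. Their median log2 fold change was -0.15, and with equal nuclear FPKM sums it was 0.11, below the median of all genes under that scaling. After adjustment 1 passed, Hp, which encodes haptoglobin, the plasma protein that binds free haemoglobin. Hp was at 0.656, 0.531 and 0.412 FPKM in Chow and at 9.40, 13.5 and 25.2 FPKM in HFpEF, from 8 to 15 recovered reads per Chow library. Its log2 fold change was 4.57 (SE 0.36, limma adjusted p = 0.0222), and every HFpEF library was higher than every Chow library. With any 1 of the 3 Chow libraries left out the limma adjusted p of Hp was 0.119 to 0.166, and without 1 HFpEF library it was 0.00554 to 0.0439. Fat cells are a known source of haptoglobin, and the 7 adipocyte markers summed to at most 0.0481 FPKM in Chow and to 36.6 to 89.3 FPKM in HFpEF. Of these markers, 5 of the 5 tested were higher without overlap (beside 15.6% of all genes). Their part in the Hp result was not tested. Without HFpEF replicate 3, 21 of the 105 (20%) passed an adjusted p under 0.05, where 8.35% of all genes did. The counts by class that follow use the unadjusted p, at which 13.1% of all genes were lower and 10.2% higher.

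Of 24 tested genes of mitochondrial iron import and iron-sulphur cluster assembly, 23 were lower, 15 of them at an unadjusted p under 0.05 (beside 13.1% of all genes), and 1 was higher at that p. The median log2 fold change was -0.48, and it was -0.33 without HFpEF replicate 3. With equal nuclear FPKM sums it was -0.23, beside a median of all genes of 0.24. Nfs1, the cysteine desulphurase that supplies sulphur for the cluster, was at 24.5, 25.8 and 25.1 FPKM in Chow and 17.8, 19.4 and 13.2 FPKM in HFpEF (log2 -0.60, limma adjusted p = 0.119). Abcb10, a transporter of the inner mitochondrial membrane, differed by -0.58 (limma adjusted p = 0.116). Sfxn1, a mitochondrial serine carrier, was the 1 higher gene, with a log2 fold change of 0.62 (limma adjusted p = 0.115). Each of these 3 separated the groups without overlap. Ventricular cardiomyocyte markers, with a median log2 fold change of -0.65, and the share of mitochondrially encoded reads were lower in the same libraries, and their part in this pattern was not tested.

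In haem synthesis 10 of 11 genes were lower, 7 of them at an unadjusted p under 0.05, and 9 were lower without overlap (beside 19.7% of all genes). The median log2 fold change was -0.41. With equal nuclear FPKM sums it was -0.15, while the median of all genes was 0.24, so haem synthesis stayed below that median. Under that scaling 0 of the 11 were lower at that p, beside 604 of the 14227 genes. Cpox, coproporphyrinogen oxidase, was at 7.75, 7.97 and 8.43 FPKM in Chow and a narrow 6.19, 5.97 and 6.09 FPKM in HFpEF (log2 -0.40, limma adjusted p = 0.111). Uros and Urod, which act before it in the pathway, differed by -0.49 and -0.34. Cytosolic iron-sulphur assembly had 3 of 6 genes lower at an unadjusted p under 0.05 and 0 higher. These 3 were Ciao3 (-0.56), Ciao2b (-0.52) and Ciapin1 (-0.32), and the median of the 6 was -0.26.

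Iron uptake and endosome genes had 3 of 11 higher and 1 lower at an unadjusted p under 0.05, where 10.2% and 13.1% of all genes were, so the single lower gene is no more than that share. Slc39a8, a zinc and manganese transporter that also carries iron, was at 1.28, 0.612 and 1.15 FPKM in Chow and 2.87, 5.13 and 1.88 FPKM in HFpEF (log2 1.55, limma adjusted p = 0.123). Slc22a17, a receptor for lipocalin 2, was higher by 1.07 on the log2 scale (limma adjusted p = 0.0977), and Exoc6 of the exocyst, which serves transferrin receptor recycling, differed by -0.44. Storage and chaperone genes had 1 of 9 lower at that p, Glrx3, a cytosolic iron-sulphur glutaredoxin, with -0.50, which is no more than the 13.1% of all genes. Of 3 export genes, App, whose product is the amyloid precursor protein, was higher by 0.44 at that p, and none was lower. None of the differences in this paragraph passed adjustment.

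Regulators of hepcidin had 3 of 16 higher and 0 lower at an unadjusted p under 0.05 (beside 10.2% and 13.1% of all genes). Without overlap 3 of the 16 were lower and 3 higher, which is close to the 19.7% and 15.6% of all genes. Bmp2, a ligand that induces hepcidin in liver, was at 0.711, 0.839 and 0.698 FPKM in Chow and 1.67, 1.26 and 1.76 FPKM in HFpEF (log2 0.96, limma adjusted p = 0.107). Smad7, an inhibitor of that signal, was higher by 0.69 and Acvr1, a receptor for it, by 0.60. Sensing genes and other mRNAs with known hairpins had 3 of 12 lower and 1 higher at that p. Egln1, the prolyl hydroxylase that marks hypoxia-inducible factor for breakdown, differed by -0.53, and Zfp36l2, a zinc finger protein that promotes mRNA decay, by 0.71. Haem uptake and breakdown had 5 of 13 higher and 0 lower at that p, among them Lrp1, the receptor for the haem and haemopexin complex, with a log2 fold change of 1.08, and Pgrmc1, a haem-binding membrane protein, with 0.55. Apart from Hp, none of these passed adjustment over all 6 libraries.

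**Figure D5:**
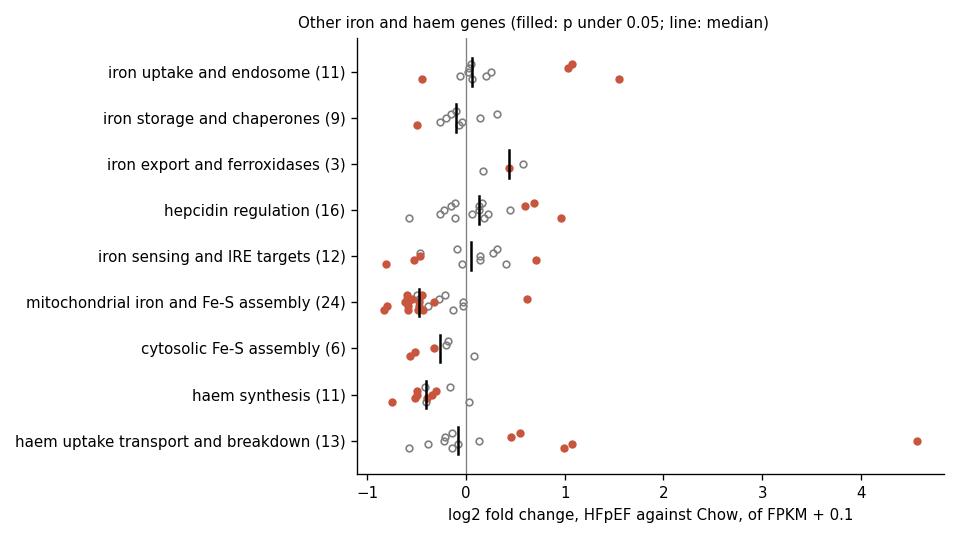
Fitted log2 fold change, HFpEF against Chow, of FPKM + 0.1 (x axis) for the 105 tested genes outside the 9, by role class with the number tested in brackets. Filled points have an unadjusted limma p under 0.05 and vertical lines mark class medians, which are lowest for mitochondrial iron and iron-sulphur assembly (-0.48) and haem synthesis (-0.41). With equal nuclear FPKM sums the medians of storage (-0.11) and of haem uptake and breakdown (-0.08) move to 0.15 and 0.17. The median of all genes then moves to 0.24, so both classes stay below it.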

How the data were processed

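RNA from 6 hearts, 3 Chow and 3 HFpEF, was sequenced, and groups follow the sample labels. The authors used HISAT2 for alignment and featureCounts for gene counts, and deposited FPKM for 54532 identifiers. The processing notes name GRCm38 (mm10), while the annotation and the FPKM formula are not given in the sources used here. The authors tested with DESeq2. The deposited unit is FPKM, so a count model was not the main test. Symbols, positions and union exon lengths came from GENCODE M21, which holds 54495 of the identifiers. FPKM multiplied by exon length gave whole multiples of 1 step per library for 96.1% to 96.2% of values at a tolerance of 1e-06, from which reads were recovered. Libraries were rescaled by their median ratio to the geometric mean (factors 0.999 to 1.00), 0.1 was added, and log2 values of genes with at least 0.5 FPKM in 3 libraries were fitted with limma 3.58.1 in R 4.3.3 (eBayes with trend and robust), with Benjamini-Hochberg adjustment over all genes tested. Fold changes are on the log2(FPKM + 0.1) scale, which understates the change of low genes. Single values were compared by exact two-sided permutation tests in Python 3.11.15 with scipy 1.17.1. The fit was also run on simulated counts with the same dispersion for every gene. These held no outlying library such as HFpEF replicate 3, so that run cannot show how the fit handles one.

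The 9 genes, the wider list, the marker lists and the alternatives were chosen with earlier results of these data known. Of the wider list, genes past the adjusted threshold are named, and in each class up to 3 with the smallest unadjusted p among those under 0.05 whose groups do not overlap. A gene that this rule covers is not reported here. The 2 nearest profiles were sought for each tested member. Ciao3 was matched as Narfl by its RefSeq synonym. Alternatives were other scalings, pseudocounts, filters and variance models, voom on recovered reads, a replicate block and leaving out each library.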

Additional observations from a re-analysis of the deposited data

How the results depend on the processing

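Over 127 alternative values for the 8 tested genes, 125 kept their direction and stayed on the same side of the limma threshold, with adjusted p from 0.0651 to 0.951. The 2 that reversed were Fth1, at 0.39 on the log2 scale under quantile normalization, and Slc11a2, at 0.079 with equal nuclear FPKM sums, which moves the median of all genes to 0.24. The ratio of Ireb2 to Aco1 ran from -0.0076 (without Chow replicate 1) to 0.187 with 1 library left out, and was -2.7e-05 without HFpEF replicate 2. Leaving out 1 library moved the number of the 8 at an unadjusted p under 0.05 to between 1 and 2 lower and between 0 and 2 higher. With equal nuclear FPKM sums 4 were higher and 1 was lower, where 3642 of the 14227 genes were higher and 604 lower. With eBayes without trend or robust options 2 of the 8 were lower and 0 higher. Of the wider list, the number past the adjusted threshold was 0 with a pseudocount of 1 and 0 with voom on recovered reads, where 0 of all genes passed and 3361 had an unadjusted p under 0.05. It ran from 0 to 21 with 1 library left out, at 0 without Chow replicate 1, 2 or 3 in turn and 21 without HFpEF replicate 3, when 1188 of all genes passed instead of 14. At an unadjusted p under 0.05, 14 to 36 of the wider list were lower and 9 to 14 higher with 1 library left out. The number of all genes at that p then ran from 1912 (without Chow replicate 2) to 3583 (without HFpEF replicate 3). With equal nuclear FPKM sums 7 of the wider list were lower and 30 higher. All genes moved the same way under that scaling, with 604 of the 14227 lower and 3642 higher at that p. The cause of these shifts was not tested. Hp had adjusted p from 0.00554 to 0.194.

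Replicate numbers were taken as sample names only. Same-numbered libraries had correlations of -0.0406, -0.0730 and -0.0572 between their deviations from the group means, and libraries of unlike number -0.0022 to 0.0717. The deviations are centred within each group, so this check cannot decide whether same-numbered libraries shared a batch. With the replicate block, 2 of all genes passed the adjusted threshold, 0 of the wider list and 0 of the 8 did, and 0 of the 8 were higher at an unadjusted p under 0.05. Hamp and Trf rest on few reads, and an exact permutation test of 3 mice against 3 cannot give a p below 0.1.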

Other observations

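The values of 4 genes of the wider list, counted above where tested and chosen here after their values were seen, are given by library. Alas2, the erythroid first enzyme of haem synthesis, was at 2.19, 15.5 and 4.27 FPKM in Chow and 14.8, 3.78 and 5.13 FPKM in HFpEF, highest in the same 2 libraries, Chow replicate 2 and HFpEF replicate 1, in which the red blood cell markers were highest. Hmox1, the haem-degrading enzyme induced by stress, was at 4.85, 5.11 and 3.26 FPKM in Chow and 5.73, 7.08 and 16.1 FPKM in HFpEF, with a log2 fold change of 0.99 (limma adjusted p = 0.204). Ftmt, mitochondrial ferritin, was listed at 0 in all 6 libraries. Tfr2, the iron-sensing receptor of liver, had 1 to 3 recovered reads in 5 libraries and 27 in HFpEF replicate 3.

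The nearest profiles of the remaining genes were those of Sult1a1 (0.0555) for Slc40a1, Wdr5 (0.0228) for Slc11a2, Pip5k1a (0.0204) for Ireb2, Ctif (0.0398) for Aco1 and Stxbp4 (0.0590) for Trf, as root mean square log2 differences over 6 libraries. Within 0.1 of the profile lay 620 tested genes for Ireb2, 498 for Slc11a2 and 176 for Aco1. The number was 3 for Tfrc, 8 for Trf, 15 for Slc40a1 and 16 for Ftl1. The distance is not scaled to the size or the spread of a gene's values. Genes that moved little thus have many others close, and these numbers do not measure how distinct a profile is.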
